A study of Mus musculus with 6 samples.

Results

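The Chil3 and Chil4 chitinase-like locus was taken as every accessible site of the deposited site table inside chr3:105880000-106080000 of the mm9 build, a window of 200 kb in which Chil3 lies near 105950000 to 105971000. The window was set by position and by no measured value, and it held 84 of 578591 sites. The assay was ATAC-seq, where a transposase inserts sequencing adapters into open DNA, and the cells were bone marrow-derived macrophages (BMDMs) of wild-type C57BL/6J mice, which were grown from marrow in medium conditioned by L929 cells, a source of the growth factor MCSF (CSF1). There were 6 libraries in 6 groups of 1: an untreated pair (Untreated, IL-4), a DMSO pair (DMSO, DMSO + IL-4), and the LatA and MCSF libraries (LatA + IL-4, MCSF + IL-4), which also had IL-4. Values are given in that order, and each pair is given without IL-4 first. Doses were 20 ng/ml over 24 h for IL-4, 1 μM for latrunculin A (LatA, which prevents actin polymerization and was carried in DMSO) and 100 ng/ml for MCSF. All 6 groups came from that medium, and the duration of the LatA and MCSF treatments is not given in the labels. Because no group had a replicate, a ratio between libraries compares those libraries, and its 95% interval (exact, Clopper-Pearson) covers counting error only. The comparisons asked whether IL-4 opened sites of this locus, and whether LatA or added MCSF, which both act on the macrophage cytoskeleton, changed its accessibility in the presence of IL-4.

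Chil3 (also called Ym1) and Chil4 (Ym2) encode secreted chitinase-like proteins, members of the chitinase family that lack chitinase activity. Chil3 is a widely used marker of mouse macrophages activated by IL-4, a cytokine that acts through the IL-4 receptor and the transcription factor STAT6, and Chil4 is a close copy of it. In the RefSeq annotation of GRCm38.p6 both genes lie on the minus strand, with Chia1, a gene of an active acidic chitinase, before Chil3 on the chromosome and the pseudogene Gm6522 and the chitinase-like gene Chil6 after Chil4. The table pairs no site with a gene, and no mm9 annotation was used, so that the interval for Chil3 is approximate, the position of Chil4 in mm9 is not given here and the macrophage label was not checked against marker genes.

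The likeness of both genes bears on where reads were placed, and their promoters are shown for that reason. The 250 bases before each gene start were taken from RefSeq on GRCm38.p6, minus strand and 5′ to 3′, and both genes had an entry. Capitals mark matches to TTCNNNGAA, a motif of the STAT family, and to TTGCNNAA, the core of the C/EBP motif, on either strand.
Chil3, chr3:106167565-106167814: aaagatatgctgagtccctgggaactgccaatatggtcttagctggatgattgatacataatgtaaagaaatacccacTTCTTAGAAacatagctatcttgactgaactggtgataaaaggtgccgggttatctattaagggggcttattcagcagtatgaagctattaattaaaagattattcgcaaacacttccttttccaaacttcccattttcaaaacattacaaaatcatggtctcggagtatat
Chil4, chr3:106219480-106219729: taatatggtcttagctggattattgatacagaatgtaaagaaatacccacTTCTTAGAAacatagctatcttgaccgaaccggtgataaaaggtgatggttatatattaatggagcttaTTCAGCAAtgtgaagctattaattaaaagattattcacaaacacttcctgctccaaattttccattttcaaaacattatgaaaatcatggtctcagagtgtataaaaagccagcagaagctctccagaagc
Over the 300-base windows that also hold 50 bases after the start, 251 of 272 aligned positions were identical, or 92.3%. Each promoter had 1 match to TTCNNNGAA, in both cases TTCTTAGAA, at −172 to −164 from the start of Chil3 and −200 to −192 from that of Chil4. Of 32851 promoters of the same length, 8.30% held such a match. Neither promoter held TTC and GAA with 4 bases between them, the spacing that STAT6 prefers, which 6.95% of promoters held, and neither held GAGGAA, the core of the PU.1 motif, which 28.3% held. Chil4 alone had a match to TTGCNNAA (TTCAGCAA as printed, which is its reverse strand) at −131 to −124, and 10.8% of promoters held that motif. These matches are a description of the letters in the windows and not of binding.

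The same likeness limits how reads could be assigned. Of the 38-base words of the Chil3 gene, 7.42% also occurred in Chil4, and 8.26% of those of Chil4 occurred in Chil3. Against the neighbours Chia1, Chil5 and Chil6 the shares were between 0.0551% and 0.351%. These shares count exact matches only, so they do not cover reads that align to the other copy with mismatches. The aligner was allowed to report several positions per read, so a read from shared sequence could be counted at both copies. How much this added to any site was not tested.

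Most sites of the locus held few reads. Their levels had a median of 10.9 normalized reads as a mean over the 6 libraries, against 10.8 over all sites of the series, with a range from 1.17 to 70.1. Normalized reads are the whole reads recovered from the table, scaled to a common library size of 15438501. Between 12387332 and 19889902 reads fell in sites per library, of which at least 881 fell in the locus. The 84 sites were 150 to 998 bp wide and covered 28.2 kb, with 34 below the Chil3 interval, 4 overlapping it and 46 above it. At a mean of at least 20 normalized reads, 15 of the 84 sites were kept (17.9%, against 22.8% of all sites), and at a mean of at least 5, 74 were kept. The second filter was added after the data were seen, because none of the 4 sites overlapping the Chil3 interval reached 20.

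No change with IL-4 was detectable in the accessibility of the locus as a whole. An edgeR fit called 5 of its sites higher with IL-4, which is a description only, for the reasons given below. Summed over the 84 sites, the untreated pair had 1209.7 and 1180.8 normalized reads, the DMSO pair 1113.1 and 1205.6, and the LatA and MCSF libraries 1043.0 and 1031.9. The IL-4 to Untreated ratio of these sums was 0.976 (95% interval 0.905 to 1.05), and that of DMSO + IL-4 to DMSO was 1.08 (0.995 to 1.18), so that both intervals held 1. In an edgeR quasi-likelihood fit across 491115 sites, with terms for the vehicle, IL-4, LatA and MCSF, 5 of the 74 locus sites were higher with IL-4 at a Benjamini-Hochberg adjusted p under 0.05 and 0 were lower. Over all sites tested the shares were 2.30% higher and 0.691% lower. At an unadjusted p under 0.05 the locus had 7 higher and 1 lower, against 6.92% and 3.63% of all sites. This fit was added after the data were seen. It has 1 residual degree of freedom, assumes the same IL-4 effect with and without DMSO, and assumes that the lone LatA and MCSF libraries vary like the others. Without the vehicle term, 0 of the 74 sites passed.

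The 5 sites are called A to E in order of position, and the plot of normalized reads along the locus shows them in each library. Sites A to D lie under the filter of 20 reads that was set for naming sites and were picked out after their values were seen. They also reached the filter of 5 reads only through the libraries with IL-4, since Untreated and DMSO together averaged under 5 at each. The count of 5 among 74 is therefore a description and not support for a response of the locus. The same holds for the ratios, adjusted p-values and separation by IL-4 given below for A to E, which were picked by the edgeR fit. In bulk cells, more cells with an open site cannot be told apart from a site more open in each cell.

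**Figure D1:**
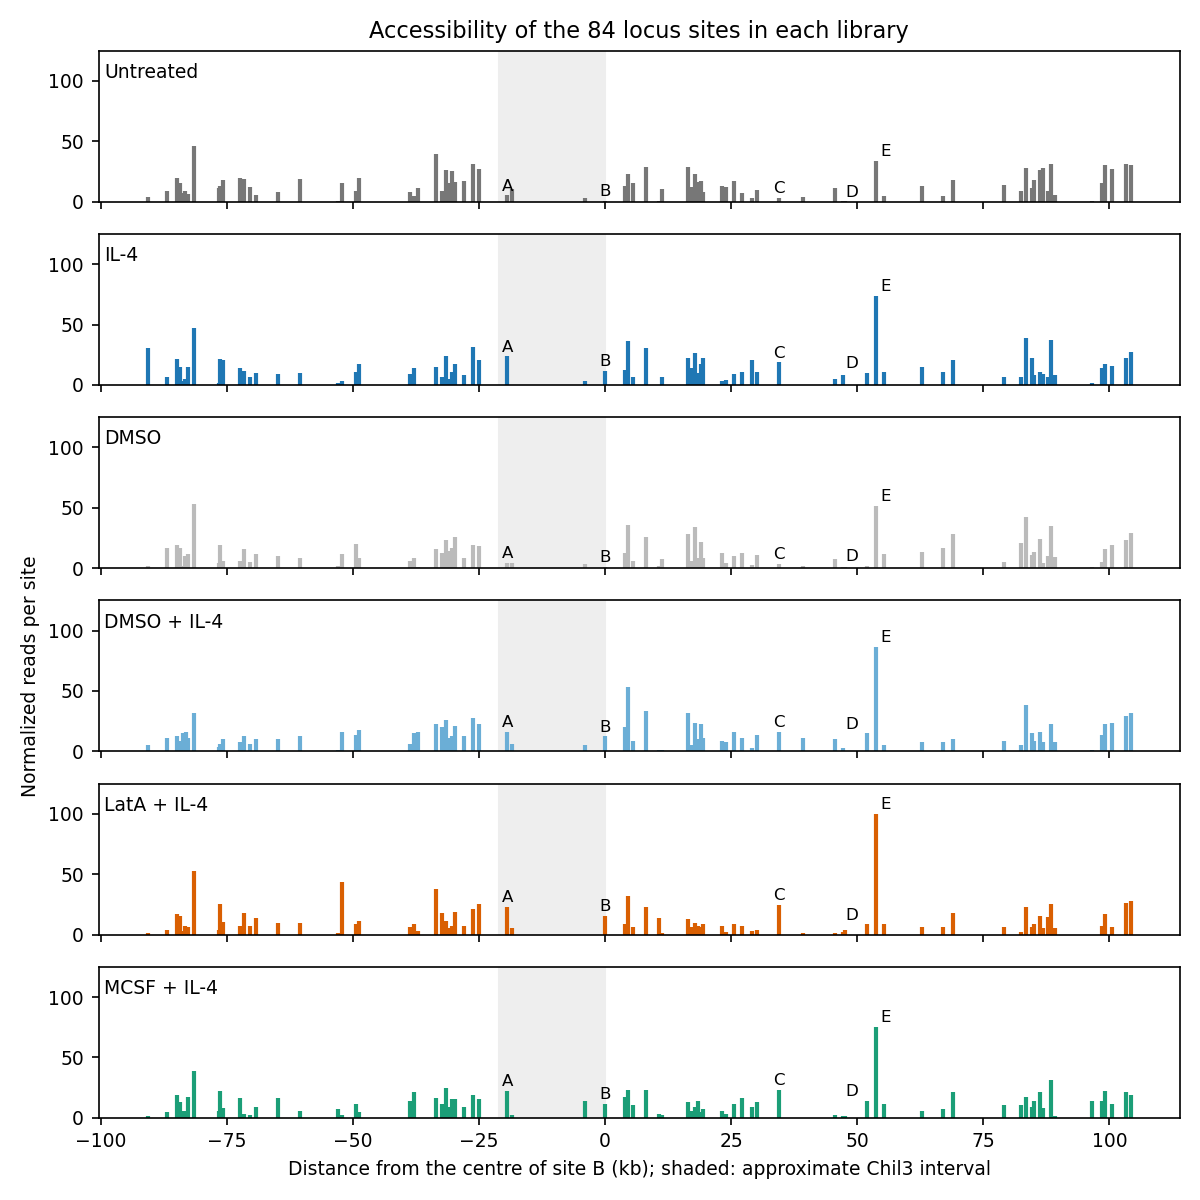
Normalized reads (vertical axis) at each of the 84 locus sites, against distance in kb from the centre of site B, with 1 panel per library and the approximate Chil3 interval shaded. Bars at A, B, C and D are near the baseline in Untreated and DMSO and visible in the 4 libraries with IL-4, and E is the tallest bar in every library with IL-4.

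Site B (chr3:105970974-105971160) lies at the upper end of the Chil3 interval, the end at which a gene on the minus strand starts. It had 1 and 12 reads in the untreated pair, 1 and 10 in the DMSO pair, 15 with LatA and 10 with MCSF. The 4 libraries with IL-4 were all above both libraries without it. The ratio of normalized reads was 15.9 (2.36 to 681) within the untreated pair and 13.7 (1.96 to 597) within the DMSO pair, intervals as wide as single reads make them. The edgeR log2 difference for IL-4 was 3.70 (adjusted p = 0.0112). A peak was called at B in LatA + IL-4 only.

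Site A (chr3:105951452-105951790) lies near the lower end of the same interval. Its untreated pair held 7 and 24 reads and its DMSO pair 5 and 13, with 22 for LatA and 19 for MCSF. Again the libraries with and without IL-4 did not overlap, at 16.1 to 23.6 and 4.5 to 5.2 normalized reads. IL-4 was 4.55-fold (1.90 to 12.5) over Untreated and DMSO + IL-4 3.57-fold (1.20 to 12.8) over DMSO, with an edgeR log2 difference of 2.01 (adjusted p = 0.0194). Peaks were called at A in the IL-4, LatA and MCSF libraries, with fold enrichments over the local background of 5.69, 6.84 and 4.41.

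The other two sites overlapping the Chil3 interval did not follow IL-4. The site at 105952530 to 105952679 had 14 and 0 reads in the untreated pair, 5 and 5 in the DMSO pair, 5 with LatA and 2 with MCSF. For the site at 105967030 to 105967206 these were 4 and 3, 4 and 4, 0 and 12. Summed over all 4 sites, the untreated pair had 19.2 and 38.3 normalized reads, the DMSO pair 13.5 and 39.6, and the LatA and MCSF libraries 44.3 and 50.4. The sum was 1.99-fold (1.18 to 3.40) higher with IL-4 in the untreated pair and 2.93-fold (1.54 to 5.83) higher in the DMSO pair. These sums are a description. A, B and the site at 105967030 had a peak only in libraries with IL-4, and the site at 105952530 only in Untreated. Site B crosses the upper edge of this approximate interval, and without it the ratios were 1.43 (0.80 to 2.57), an interval that holds 1, and 2.16 (1.06 to 4.56).

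Sites C, D and E lie above the Chil3 interval. Site C (chr3:106005359-106005688) had 4 and 19 reads in the untreated pair, 4 and 13 in the DMSO pair, 23 with LatA and 20 with MCSF. Its 4 libraries with IL-4 held 16.1 to 24.3 normalized reads, against 3.0 and 3.6 without. The ratios were 6.30 (2.09 to 25.5) against Untreated and 4.47 (1.38 to 18.8) against DMSO, and the edgeR log2 difference was 2.38 (adjusted p = 0.00974). As at A, peaks were called in the IL-4, LatA and MCSF libraries.

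Site D (chr3:106022857-106023017) had 0 and 10 reads in the untreated pair, 2 and 12 in the DMSO pair, 8 with LatA and 12 with MCSF. Against 3 reads, the limit that a count of 0 allows, IL-4 was 4.42-fold higher than Untreated, the exact 95% lower limit of the ratio was 2.97, and DMSO + IL-4 was 8.25-fold (1.84 to 75.9) over DMSO. The edgeR log2 difference was 3.77 (adjusted p = 0.0180), a fitted value that for a site with 0 reads depends on the prior count. A peak was called in MCSF + IL-4 only.

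Site E (chr3:106024439-106025020), 1.79 kb from D, was the strongest site of the locus and the only one of the 5 with a peak in Untreated or DMSO. It had 46 and 75 reads in the untreated pair, 57 and 70 in the DMSO pair, 95 with LatA and 64 with MCSF. In normalized reads the libraries without IL-4 stood at 34.0 and 51.3, and those with it at 73.6 to 100.2. IL-4 was 2.16-fold (1.48 to 3.19) over Untreated and DMSO + IL-4 was 1.69-fold (1.17 to 2.44) over DMSO. The edgeR log2 difference was 0.93 (adjusted p = 0.025). A peak was called at E in all 6 libraries, with a fold enrichment of 8.99 in Untreated and 11.6 in DMSO, and of 16.2 to 18.6 with IL-4.

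**Figure D2:**
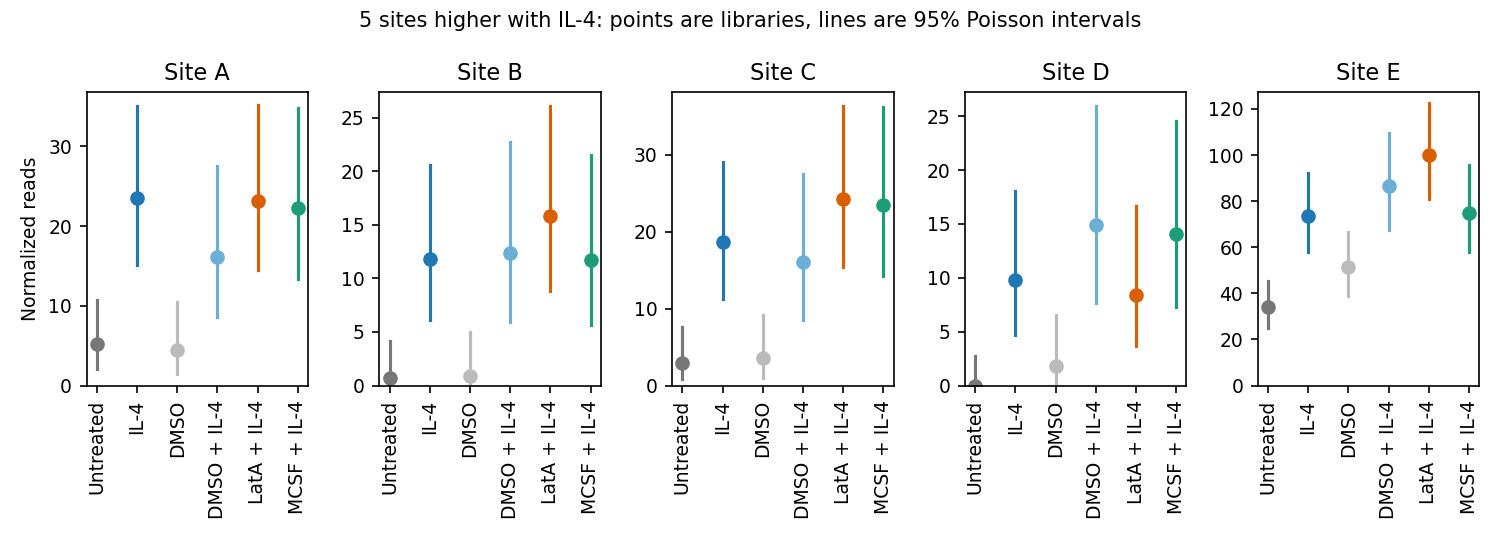
Normalized reads (vertical axes, a separate scale per panel starting at 0) at sites A to E in each of the 6 libraries, with points for libraries and lines for 95% Poisson intervals. At each site the 4 libraries with IL-4 lie above Untreated and DMSO, which at A to D hold at most 5.2 normalized reads. The sites were picked for being higher with IL-4.

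The sites at both ends of the Chil3 interval had counterparts at a like distance above it. The centres of B and D were 51.9 kb apart, and those of A and C 53.9 kb apart. Other pairs had similar spacings, with B and E at 53.7 kb and the sites starting at 105880251 and 105932930 at 52.7 kb. The starts of Chil3 and Chil4 are 51.9 kb apart in GRCm38.p6. The builds were not converted, so C, D and E are not assigned to Chil4 or to any other gene. Whether reads of 1 copy were also counted at the other was not tested.

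The vehicle was compared at the same 5 sites. Summed over A to E, the untreated pair had 42.9 and 137.4 normalized reads and the DMSO pair 62.1 and 146.1. With IL-4 the sum was 3.20-fold (2.34 to 4.43) higher in the untreated pair and 2.35-fold (1.73 to 3.21) higher in the DMSO pair, values given as a description because the sites were chosen for being higher. Intervals of sums over sites treat all reads as separate. Any read counted at both copies would make them too narrow, and this was not tested. DMSO stood at 1.45 (1.01 to 2.09) times Untreated, and DMSO + IL-4 at 1.06 (0.825 to 1.37) times IL-4. In edgeR 0 of the 74 locus sites passed an adjusted p of 0.05 for the vehicle in either direction, against 0.345% higher and 0.360% lower of all sites. At an unadjusted p under 0.05 there were 0 higher and 4 lower, against 3.62% and 2.74% of all sites.

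The IL-4 sites were then compared with LatA and MCSF, as a description, because these libraries also had IL-4 and helped sites A to D to reach the filter of 5 reads and the test. Summed over A to E, the LatA library had 171.9 normalized reads and the MCSF library 146.4. LatA + IL-4 was 1.18 (0.923 to 1.5) times DMSO + IL-4, and MCSF + IL-4 was 1.07 (0.830 to 1.37) times IL-4. Over the 4 sites of the Chil3 interval the ratios were 1.12 (0.689 to 1.83) for LatA and 1.32 (0.833 to 2.08) for MCSF. Over the 7 sites past the filter of 5 reads that were higher in both pairs they were 1.09 (0.867 to 1.38) and 0.929 (0.742 to 1.16). All of these intervals held 1. The 7 sites include that at 105880251 to 105880526, which held 31 reads with IL-4 alone but 1 with MCSF added and had the smallest adjusted p of the locus for MCSF by edgeR, 0.0534. The direction at E depended on the scaling. Its log2 ratio was 0.21 with LatA and 0.03 with MCSF, and −0.35 and −0.54 once the trend of the ratios with mean reads over all sites was removed, with both of the latter short of 1.5-fold. Single sites had wider intervals than the sum. Before the trend was removed, site D was the only one of the 5 that stood lower with LatA. Its ratio was 0.568 (0.201 to 1.51) there and 1.43 (0.567 to 3.70) with MCSF. By edgeR the adjusted p of the 5 sites was between 0.752 and 0.927 for LatA and between 0.811 and 0.999 for MCSF.

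Summed over the locus, accessibility was lower with both treatments. The locus sum in LatA + IL-4 was 0.865 (0.791 to 0.946) times that in DMSO + IL-4, and in MCSF + IL-4 it was 0.874 (0.80 to 0.954) times that in IL-4. These comparisons share no library. Libraries without either treatment also differed, since the locus sum in DMSO was 0.920 (0.854 to 0.991) times that in Untreated. With LatA the ratio was 0.776 (0.688 to 0.875) above the Chil3 interval and 0.981 (0.851 to 1.13) below it. With MCSF the ratios were 0.846 (0.753 to 0.95) above and 0.879 (0.761 to 1.01) below, and the difference between the sides was not tested. Over the 15 sites past the filter of 20 reads the sum stood at 0.883 (0.769 to 1.01) with LatA, an interval that holds 1, and at 0.783 (0.677 to 0.905) with MCSF. Among the 15 sites past the filter of 20 reads, 2 were higher and 5 lower past 1.5-fold with LatA, against 30.1% and 15.7% of all such sites. With MCSF, 0 were higher and 5 lower, against 29.2% and 14.9%. The median log2 ratio of the 15 sites was −0.35 with LatA, where that of all sites was 0.20, and −0.36 with MCSF, where that of all sites was 0.16. With the filter of 5 reads the median stayed at −0.37 with LatA, against 0.01 over all sites, but was −0.07 with MCSF, against −0.01. Of the 74 sites past the filter of 5 reads, 8 were higher and 27 lower with LatA (26.9% and 26.6% of all sites), and 9 were higher and 21 lower with MCSF (26.6% and 25.9%). In edgeR, 0 of the 74 sites passed an adjusted p of 0.05 with either treatment, against 1.20% higher and 0.560% lower of all sites for LatA and 2.73% and 0.706% for MCSF. At an unadjusted p under 0.05 there were 3 higher and 4 lower with LatA (7.71% and 5.25% of all sites), and 0 higher and 6 lower with MCSF (9.88% and 5.12%).

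Both treated libraries were lower in the sum over a run of 7 neighbouring sites above the Chil3 interval, at 105987242 to 105990562, singled out after its values were seen among 9 runs of at least 3 sites with gaps of at most 1000 bp. Its summed reads were 147 and 120 in the untreated pair, 126 and 87 in the DMSO pair, 51 with LatA and 50 with MCSF. In normalized reads the 4 libraries without either treatment stood at 107.7 to 117.8, and the LatA and MCSF libraries at 53.8 and 58.6. The ratio was 0.499 (0.346 to 0.714) for LatA and 0.497 (0.350 to 0.697) for MCSF, whereas IL-4 stood at 1.08 (0.844 to 1.39) times Untreated and DMSO + IL-4 at 0.949 (0.714 to 1.26) times DMSO. The other 8 runs were mixed. With LatA the runs starting at 105932314, 106069370 and 105974703 stood at 0.483 (0.25 to 0.904), 0.515 (0.313 to 0.833) and 0.568 (0.379 to 0.844), where MCSF stood at 1.56 (0.874 to 2.81), 1.02 (0.655 to 1.58) and 0.921 (0.607 to 1.39). The run starting at 105894381 was higher with LatA, at 2.02 (1.10 to 3.89), and stood at 0.822 (0.503 to 1.33) with MCSF. In the remaining 4 runs the ratios were 0.880 to 1.29 with LatA and 0.749 to 1.18 with MCSF. Of their intervals for LatA and MCSF, only that for MCSF at the run starting at 106053408 did not hold 1, at 0.767 (0.588 to 0.996).

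Within the run, the site at 105987242 to 105987906 had 39 and 23 reads in the untreated pair, 31 and 26 in the DMSO pair, 12 with LatA and 11 with MCSF. For the site at 105988748 to 105989211 these were 31 and 27, 38 and 19, 9 and 8. At 105989787 to 105990202 they were 23 and 18, 24 and 18, 3 and 4. These sites were lowest in the LatA and MCSF libraries, and none passed the edgeR test. The last of them had the smallest adjusted p of any locus site for LatA, 0.0681 at a log2 difference of −2.77, and 0.221 at −1.88 for MCSF. The other 4 sites of the run, with 3 to 23 reads per library, did not all share the pattern. At 105987998 to 105988223 LatA + IL-4 had 6.33 normalized reads and DMSO + IL-4 had 4.95, and at 105989528 to 105989750 they had 6.33 and 3.71. At 105989270 to 105989524 MCSF + IL-4 had 14.1 and IL-4 had 9.82. Only the site at 105990303 to 105990562 was lower in both comparisons, with 8.44 against 11.1 for LatA and 7.03 against 22.6 for MCSF.

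**Figure D3:**
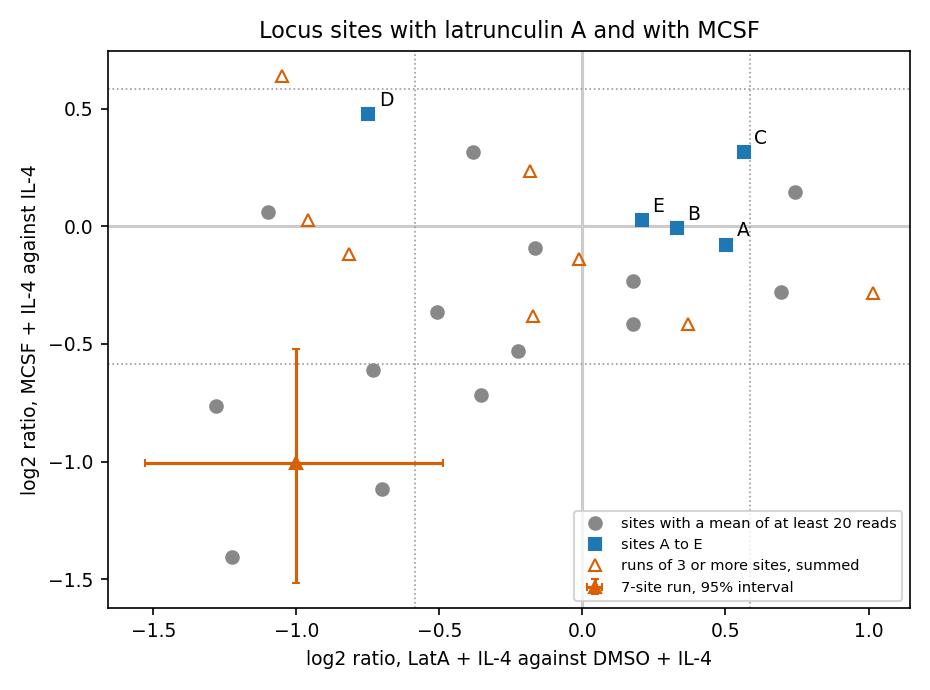
Log2 ratio of LatA + IL-4 to DMSO + IL-4 (horizontal axis) against that of MCSF + IL-4 to IL-4 (vertical axis) for the 15 locus sites past the filter of 20 reads, sites A to E and the 9 runs of neighbouring sites, with dotted lines at 1.5-fold and 95% intervals on the 7-site run. The 7-site run lies at log2 ratios that stand for 0.499 and 0.497 times, while sites A, B, C and E lie near or to the right of 0 for LatA and near 0 or above for MCSF (E falls below 0 on both axes once the trend with mean reads is removed).

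Not every site was lower with both treatments. A site at 105918435 to 105919157, below the filter of 20 reads and also chosen after its values were seen, had 21 and 3 reads in the untreated pair, 13 and 13 in the DMSO pair, 41 with LatA and 2 with MCSF. It was highest with LatA and lowest with MCSF. LatA + IL-4 was 2.69-fold (1.41 to 5.47) over DMSO + IL-4, with an edgeR adjusted p of 0.0708. At 105937369 to 105937884 LatA + IL-4 had 36 reads and DMSO + IL-4 had 18, while MCSF + IL-4 and IL-4 had 14 and 15. That site was highest in Untreated, with 53 reads, and had 18 in DMSO.

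The stronger sites were also compared with and without IL-4. Of the 15 sites past the filter of 20 reads, 2 were higher and 2 lower past 1.5-fold in IL-4 than in Untreated, against 20.8% and 8.88% of all such sites. In DMSO + IL-4 against DMSO, 1 was higher and 2 lower, against 16.6% and 12.8%. Only E was higher in both comparisons, and 0 were lower in both, where 8.73% and 2.38% of all sites were. Of the 74 sites past the filter of 5 reads, 16 were higher and 24 lower within the untreated pair (23.7% and 19.7% of all sites), and 18 were higher and 11 lower within the DMSO pair (23.6% and 22.2%). In both pairs 7 were higher and 1 lower, against 8.47% and 5.66% of all sites. Besides A to E, the higher ones were the site at 105932930 to 105933255, with 6 and 14 reads in the untreated pair, 9 and 12 in the DMSO pair, 8 with LatA and 18 with MCSF, and the site at 105880251 to 105880526. The latter had 5 and 31, 2 and 4, 1 and 1, so that its IL-4 library stood apart from the rest, and neither site passed the edgeR test.

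With DMSO against Untreated, 1 of the 15 sites was higher and 3 lower (16.8% and 7.24% of all sites), and 0 were higher and 1 lower in DMSO + IL-4 than in IL-4 (11.2% and 9.80%). Of the 74 sites the counts were 14 higher and 21 lower (21.3% and 18.7% of all sites) for DMSO against Untreated, and 15 and 14 (20.9% each) for DMSO + IL-4 against IL-4. The locus sum in DMSO was 0.920 (0.854 to 0.991) times that in Untreated, and that in DMSO + IL-4 was 1.02 (0.937 to 1.11) times that in IL-4.

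The site nearest above the Chil3 interval among the 15, at 105975329 to 105975851, had a peak in all 6 libraries. Its reads were 31 and 37 in the untreated pair, 40 and 43 in the DMSO pair, 30 with LatA and 20 with MCSF, or 22.9 and 36.3, 36.0 and 53.2, 31.6 and 23.4 when normalized. It was lower past 1.5-fold with both LatA (log2 ratio −0.73) and MCSF (−0.61), and IL-4 and DMSO each stood above Untreated. The next, at 105978789 to 105979387, had 39 and 31, 29 and 27, 22 and 20 reads in the same order, and passed 1.5-fold in no comparison.

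Below the interval lay 5 of the 15 sites. The site at 105888992 to 105889989, the second strongest of the locus, had 62 and 48 reads in the untreated pair, 59 and 26 in the DMSO pair, 50 with LatA and 33 with MCSF. The DMSO + IL-4 library was its lowest, so its ratio was past 1.5-fold lower against DMSO (log2 ratio −0.71) and higher in LatA + IL-4 (0.70). In the same order of libraries, the site at 105939302 to 105939756 had 36 and 24, 26 and 21, 11 and 21 reads, and was lower with LatA alone (log2 ratio −1.10). The site at 105944607 to 105944986 had 42 and 32, 21 and 22, 20 and 16, and was lower with MCSF (−0.72). That at 105945674 to 105946239 had 37 and 21, 20 and 18, 24 and 13, and passed 1.5-fold in neither treatment.

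Past E lay the remaining 5 sites, none of which stood higher past 1.5-fold with either treatment. The site at 106054136 to 106054894 had 38 and 40 reads in the untreated pair, 47 and 31 in the DMSO pair, 22 with LatA and 15 with MCSF. It was lower with both, at log2 ratios of −0.70 for LatA and −1.12 for MCSF. In the same order, the site at 106059243 to 106059806 had 42 and 38, 39 and 18, 24 and 27 reads, and the site at 106069857 to 106070389 had 41 and 18, 18 and 18, 16 and 19. The former was lowest in DMSO + IL-4, and the latter stood higher in Untreated than in every other library. The sites at 106074062 to 106074506, with 18 to 42 reads, and at 106074873 to 106075633, with 16 to 41, were each lowest in MCSF + IL-4, and neither passed 1.5-fold in any comparison.

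The deposited peak lists held 47 and 26 peaks in the window in the untreated pair, 30 and 20 in the DMSO pair, 19 with LatA and 26 with MCSF. They covered 12.7 and 6.96 kb in the untreated pair, 7.50 and 4.90 kb in the DMSO pair, 5.53 kb with LatA and 6.55 kb with MCSF. The whole lists held 269643 peaks in Untreated and 222076 to 232676 in the others. Untreated, which had the most peaks, also had the most reads in sites, and DMSO + IL-4 the fewest, and the part of depth in these numbers was not tested. The median fold enrichment of the peaks ran from 3.12 in Untreated to 4.0 in LatA + IL-4, and the strongest peak in each library was that at E.

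Elsewhere in the genome, the 3 sites of 100 normalized reads or more on average whose levels most resembled the summed Chil3 interval over the 6 libraries lay on chromosome 5 (25218907 to 25219492, Pearson r = 0.993), chromosome 4 (86535520 to 86537048, r = 0.989) and chromosome 1 (14603395 to 14603862, r = 0.988). The site on chromosome 5 had 34.0 and 164.9 normalized reads in the untreated pair, 9.0 and 174.5 in the DMSO pair, 195.1 with LatA and 275.3 with MCSF. Like the Chil3 interval it was lowest in DMSO and highest in MCSF + IL-4. With 6 libraries that share their IL-4 contrast, 86 of 13052 candidate sites had an r over 0.95, so the measure singles out no site.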

How the data were processed

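The labels place 6 ATAC-seq libraries of mouse BMDMs in 6 groups of 1. Per the study's methods, the authors trimmed reads with cutadapt, aligned them to mm9 with Bowtie2 reporting several alignments per read, removed duplicates with Picard and reads of blacklisted and mitochondrial regions, called peaks with MACS2 on shifted read ends and counted reads per site with featureCounts. Versions are not given in the sources used here. The signal in the deposited site table is CPM scaled by the authors with TMM factors of edgeR. All values of each library (100%, tolerance 0.001 reads) came out as whole reads. The deposited peak lists give a fold enrichment (a ratio to local background), a score and a −log10 q-value, of which the score was not used.

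Reads were divided by the effective library sizes, brought to their geometric mean (15438501), and compared as log2 ratios with 1 read added. A site at the filter of 20 normalized reads holds 16.2 to 27.0 reads, depending on the library. Every locus site past that filter is named with its reads, and others were named after their values were seen. There were 6 comparisons, called at 1.5-fold with no test, and ratio intervals were exact. Because whole reads were recovered, edgeR 4.0.16 (R 4.3.3) was run as an added quasi-likelihood fit with Benjamini-Hochberg adjustment over every site whose mean reached 5 reads; scripts were tested on simulated data. Other scalings, filters, folds and read additions were tried. Intervals cover counting error only, since each group has 1 library, and reads carry no molecular identifiers. The last site on chromosome 1 ends at 197195351, past that chromosome's length in GRCm38.p6 (195471971), so GRCm38.p6 served for names, gene order and sequence only and no coordinate was converted. Members and lists were chosen with earlier results of these data known. Python 3.11.15, numpy 2.4.6, scipy 1.17.1 and pandas 2.3.3 were used.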

Additional observations from a re-analysis of the deposited data

How the results depend on the processing

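Each group has 1 library, so no replicate number pairs samples and no library could be left out within a group. The vehicle term of the edgeR fit is what compares IL-4 within the untreated and DMSO pairs. No log2 ratio that had passed 1.5-fold changed sign. Site E turned from 0.21 to −0.35 with LatA and from 0.03 to −0.54 with MCSF once the trend with mean reads was removed, outside its counting intervals; the cause was not tested. Other ratios near 0 changed sign within their intervals, such as the locus sum of IL-4 against Untreated, at −0.03 over all sites and 0.04 over the 15 stronger sites. Of 504 log2 ratios recomputed at 23 named sites under other scalings, read additions or removal of the trend with mean reads, 501 stayed within their counting intervals and 477 kept their side of 1.5-fold. Besides those of E, the ratio of IL-4 to Untreated at site D left its interval, with 5 reads added. The edgeR calls for IL-4 numbered 5 of 74 with the deposited scaling, with total reads and with DESeq2 size factors, and 0 without the vehicle term, where the adjusted p of A to E was 0.0853, 0.0531, 0.0548, 0.117 and 0.241. That fit called 0.938% of all sites for IL-4, against 2.99%, and the cause was not tested. These edgeR fits and the filter of 5 reads were chosen after seeing the data.

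Counts of locus sites past 1.5-fold, given as higher and lower, moved most with the filter, as more sites enter. With no filter they were 19 and 28 for IL-4 against Untreated, 20 and 14 for DMSO + IL-4 against DMSO, 17 and 23 for DMSO against Untreated, 19 and 16 for DMSO + IL-4 against IL-4, 11 and 30 for LatA and 15 and 23 for MCSF. With a mean of at least 5 reads they were, in that order, 16 and 24, 18 and 11, 14 and 21, 15 and 14, 8 and 27, and 9 and 21. At 2-fold they were 1 and 1, 0 and 0, 0 and 1, 0 and 0, 0 and 3, and 0 and 2. With 5 reads added, 1 site was higher in IL-4 than in Untreated, 1 lower within the DMSO pair and 0 higher in DMSO than in Untreated. With the trend removed, 1 was higher in IL-4, 0 higher in DMSO, 1 higher and 2 lower in DMSO + IL-4 against IL-4, and 1 higher with LatA. With total reads, 2 were higher and 1 lower within the DMSO pair and 0 higher in DMSO than in Untreated, a comparison whose median over all sites that scaling shifts by −0.12 (log2). The locus sum of DMSO against Untreated was then −0.24 (log2), and −0.12 before. The locus sum for MCSF was −0.35 over the 15 stronger sites alone, against −0.19, and that of IL-4 against Untreated was −0.21 without the 7 sites that were higher in both pairs, against −0.03. Depth limits sites A to D, whose libraries hold 0 to 24 reads.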
